A study of Rattus norvegicus with 2 samples.

Results

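Chromosome 3 of the rat was described by the 15779 array probes that lie on it in the assembly rn4, of 231247 probes on chromosomes 1 to 20 and X. A probe was taken when its position in the files is on chromosome 3, randomly placed sequence excluded, and when no outlier flag marked its spot in either channel on either array. Repeated spots of a probe were averaged. The chromosome was chosen on the measured levels, because its averaged 8-oxoG profile holds a depleted stretch of 24.3 Mb in its distal part, from 140893068 to 165151348, which is called the distal depleted domain here. Since the levels themselves led to this choice, the levels of the chromosome and of the domain are given as a description, without a test.

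The arrays were 2, one for each of 2 male Wistar rats of 5 weeks (strain spelled "Wister rat" in the labels), with normal, untreated kidney as the only group. DNA of kidney tissue, with all its cell types, was cut with a restriction enzyme and precipitated with the monoclonal 8-oxoG antibody N45.1. The IP DNA was labelled with Cy5 and the input DNA, which was not precipitated, with Cy3, and both were hybridised together on a Rat Genome CGH array. Cy5 marked the IP on both arrays, and an effect of the dye therefore cannot be told apart from one of the precipitation. An array of DNA measures no expressed marker, so the labelled tissue could not be checked against one.

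8-Oxoguanine is guanine oxidised at the eighth position of the base by reactive oxygen species. It can pair with adenine as well as with cytosine, so that it can lead to G-to-T transversions when it is left unrepaired. OGG1, a glycosylase of base excision repair, removes the oxidised base, MUTYH removes an adenine placed opposite it, and MTH1 clears the oxidised nucleotide from the nucleotide pool. Gene-poor chromatin tends to lie at the nuclear lamina and gene-rich chromatin in the interior of the nucleus. The study mapped 8-oxoG over the genome to find regions that are prone to this lesion.

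The level of a probe was log2(IP/input) of the processed intensities after subtraction of the median of the array, so that 0 stands for the middle of the array, not for DNA free of 8-oxoG. Both dyes stood well above background on both arrays for 12386 of the 15779 probes (78.5%). The probes cover 171.0 Mb from 103042 to 171058175, and their starts are a median of 7150 bases apart. The probe files name no genes and carry no base sequence, and neither genes nor sequence of rn4 were used here. In RefSeq's table of the assembly GRCr8, 65 of 67 gene symbols listed for this work are on chromosome 3. Among them are the HoxD cluster of developmental regulators, catalase (Cat), which breaks down hydrogen peroxide, glutathione synthetase (Gss), the antioxidant regulator Nfe2l2, the endocytic receptor megalin (Lrp2) and the Na-K-Cl cotransporter of the thick ascending limb (Slc12a1). Their places on rn4 were not used, so no level belongs to any of them here.

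Seen as a whole, chromosome 3 was close to the middle of the array. Its mean level was -0.020 on replicate 1 and -0.095 on replicate 2, or -0.058 ± 0.053 (SD, n = 2). Chromosome means of the other 20 chromosomes ranged from -0.20 to 0.03. Single probes spread far more widely than the chromosome means, with an SD over probes of 0.96 on replicate 1 and 1.23 on replicate 2.

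Along the chromosome the level alternated between 8-oxoG-rich and 8-oxoG-depleted stretches, until the distal end, where depletion was almost continuous. In the plot of the profile, each point averages the probes that lie up to 500 kb to either side, and a rich or depleted region is a stretch of consecutive probes whose averaged level stays on one side of 0. There were 17 rich and 21 depleted regions of 1 Mb or longer, with median lengths of 2.44 Mb and 2.21 Mb. The rich regions covered 30.1% of the chromosome and the depleted regions 54.8%. Such regions were not counted over the genome here, but more depletion than enrichment was not particular to chromosome 3. Of all 2731 fragments of 1 Mb of the genome, 48.9% were below 0 on both arrays and 32.8% above, against 49.4% and 28.5% on chromosome 3. No rich region and 2 depleted regions were longer than 10 Mb. Replicate 1 alone gave 19 rich and 17 depleted regions, and replicate 2 alone gave 18 and 25.

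**Figure D1:**
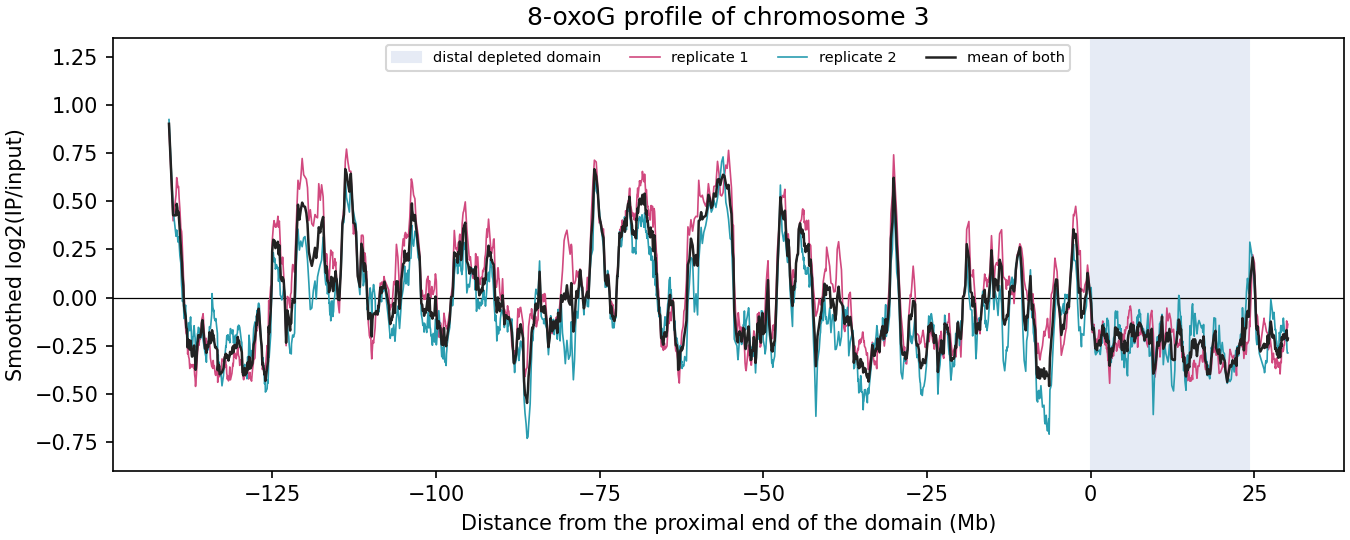
Smoothed log2(IP/input) along chromosome 3 (vertical axis) against the distance in Mb from the proximal end of the distal depleted domain (horizontal axis), for replicate 1, replicate 2 and the mean of both, with the domain shaded. Before the domain the curves cross 0 many times, whereas inside it the mean curve stays between -0.46 and -0.02.

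In sections of 10 Mb, 4 of the 18 sections were above 0 on both arrays, 10 were below 0 on both, and 4 lay above 0 on replicate 1 and below 0 on replicate 2. Sections of other chromosomes were not counted here. The highest section was the one from 20 to 30 Mb, with 0.34 on replicate 1 and 0.15 on replicate 2. The section from 70 to 80 Mb followed, with 0.24 and 0.13. Each of the last 4 sections, from 140 Mb to the last probe, was below 0 on both arrays, and so were the first pair, from the start to 20 Mb. The lowest section lay inside the domain, from 150 to 160 Mb, with -0.30 on replicate 1 and -0.25 on replicate 2. The section from 140 to 150 Mb had -0.20 and -0.19, and the section from 160 to 170 Mb had -0.25 and -0.21.

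The distal depleted domain holds 2439 probes. Their mean level was -0.26 on replicate 1 and -0.23 on replicate 2, or -0.24 ± 0.022 (SD, n = 2). The other 13340 probes of chromosome 3 had a mean of 0.023 on replicate 1 and -0.071 on replicate 2. The domain was therefore lower than the rest of its chromosome by 0.28 on replicate 1 and by 0.16 on replicate 2, a mean difference of -0.22 ± 0.089 (SD, n = 2). The domain was lower on both arrays, but the gap was wider in replicate 1, where the rest of the chromosome was higher. With 2 arrays an exact permutation of signs cannot go below p = 0.5, which is a further reason why no test of these differences is given. Normexp background correction, an alternative way to subtract background, was applied to the median spot and background brightness. An offset of 50 was added to both channels, and there was no dye normalization or spatial detrending. The difference was then -0.068 on replicate 1 and -0.0030 on replicate 2, so that almost nothing of it was left in replicate 2. These steps changed together, and the part of each was not tested.

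The domain was low as a shift of many probes rather than as a few very low ones. Its quartiles were -0.79, -0.23 and 0.30 on replicate 1, against -0.56, 0.04 and 0.63 in the rest of the chromosome. On replicate 2 they were -0.87, -0.10 and 0.54, against -0.72, 0.03 and 0.69. All 3 quartiles were thus lower in the domain on both arrays. Levels averaged over both arrays exceeded 1 for 5.54% of the domain probes and for 12.3% of the others, and they were below -1 for 16.1% and 12.5%. Both arrays were below 0 for 37.8% of the domain probes, against 30.6% of the others. At the level of single probes the domain is therefore far from uniform, and 22.3% of its probes were above 0 in both rats.

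Averaging over 1 Mb removed most of this mixture. Of the 172 fragments of 1 Mb on the chromosome, 24 lie in the domain, and all 24 were below 0 on both arrays. Their mean over both rats was held below 0 by the choice of the domain, so this count describes it and is no finding. Over all 2731 fragments of the genome 48.9% were below 0 on both arrays, and over the 148 fragments of the rest of chromosome 3 the number was 61. The fragments of the domain had a lowest, median and highest level of -0.39, -0.26 and -0.075 on replicate 1, and of -0.60, -0.21 and -0.036 on replicate 2. The highest fragment of the domain by the mean of both rats, from 154 to 155 Mb, had -0.23 on replicate 1 and -0.036 on replicate 2. In the rest of the chromosome 49 fragments were above 0 on both arrays, or 33.1%, against 32.8% of all fragments of the genome, and 38 had opposite signs in the rats. The highest mean of a domain fragment was -0.13, and 52 of the 148 other fragments were at or below it, so the levels inside and outside the domain overlap. Only 3 of the other fragments were below the lowest domain fragment, which had -0.40.

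**Figure D2:**
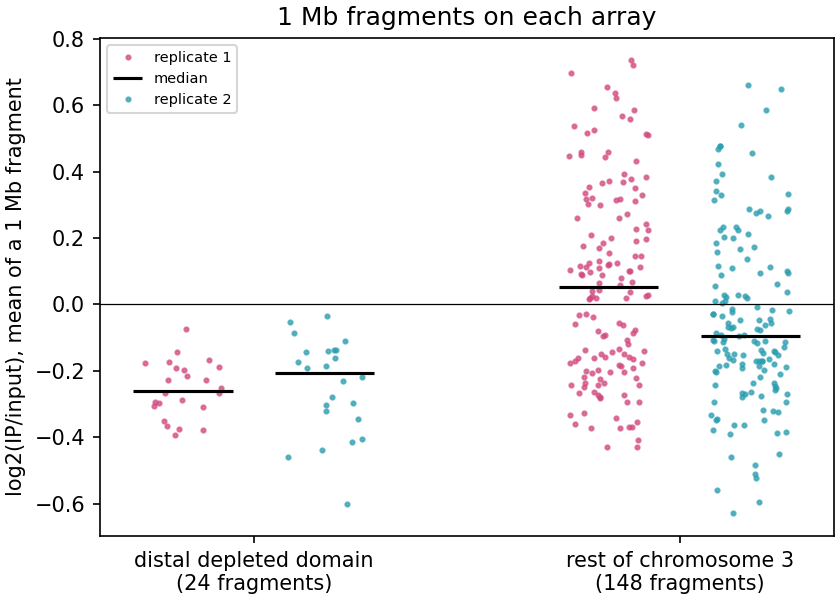
Mean log2(IP/input) of each 1 Mb fragment of chromosome 3 (vertical axis) in the distal depleted domain and in the rest of the chromosome, with a point for each fragment on each array and a line at the median. All 24 domain fragments lie below 0 on both arrays, whereas the 148 other fragments reach from -0.43 to 0.73 on replicate 1 and from -0.63 to 0.66 on replicate 2.

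With limma and Benjamini-Hochberg adjustment over all 2731 fragments, 10 of the 24 domain fragments were called below 0 and none above. On the whole of chromosome 3, 31 fragments were called above 0 and 33 below, while over the genome 20.9% were called above and 20.4% below. These calls use the levels that led to the choice of the chromosome, so they are printed as a description and nothing is read from them. With normexp background correction 1 fragment of chromosome 3 was called above 0 and 10 below, and with the median instead of the mean over probes 33 and 18.

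Fragments of other sizes were counted as well. The choice of the domain by its averaged level also lowers the levels at these sizes, so the shares describe it and are no finding. Of its 48 fragments of 500 kb, 42 were below 0 on both arrays (87.5%) and none was above 0 on both, against 40.7% and 34.2% in the rest of the chromosome. Of its 122 fragments of 200 kb, 84 were below 0 on both (68.9%) and 10 above 0 on both (8.20%), against 38.3% and 34.8% in the rest. Its 480 fragments of 50 kb held a median of 3 probes each. Among them 251 were below 0 on both (52.3%) and 57 were above 0 on both (11.9%), against 32.3% and 33.7% in the rest. Fragments above 0 in both rats were thus counted in the domain at 50 kb and 200 kb, and not at 500 kb or 1 Mb, and at 50 kb each rests on few probes.

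The lowest 1 Mb fragment of the domain, from 155 to 156 Mb with 188 probes, had -0.36 on replicate 1 and -0.44 on replicate 2. The next, from 161 to 162 Mb, had -0.38 and -0.42. In the fragment from 150 to 151 Mb, with 46 probes, the rats lay further apart, at -0.18 and -0.60. The 3 lowest fragments of the domain thus include a pair in which both rats were similarly low and a sparsely probed one that was carried by replicate 2.

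The proximal end of the domain was placed between neighbouring probes whose averaged level passed from 0.02 to -0.02. The fragment from 140 to 141 Mb, which holds this end, had 0.19 on replicate 1 and 0.11 on replicate 2 over 43 probes. The next, from 141 to 142 Mb, had -0.20 and -0.22. The first 200 kb outside this end held 1 probe, with 0.93 on replicate 1 and 1.32 on replicate 2. The 200 kb beyond had -0.25 and 0.035 over 10 probes, so few probes mark this end on its outer side. At the distal end the averaged level passed from -0.040 to 0.0021, but the rats did not cross 0 together there. The averaged level was -0.23 on replicate 1 and 0.15 on replicate 2 at the last probe inside, and -0.19 and 0.19 at the first probe outside. The fragment from 164 to 165 Mb had -0.25 on replicate 1 and -0.11 on replicate 2, and the fragment from 165 to 166 Mb, with 49 probes, had 0.12 and 0.33. The signs of both rats thus changed between adjacent 1 Mb fragments at both ends, whereas the exact place of the distal end is a mean of opposite signs. In the last 200 kb inside the distal end, 10 probes had -0.23 on replicate 1 and 0.70 on replicate 2. In the 200 kb before those, 13 probes were above 0 in both rats, at 0.18 and 0.60.

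Beyond the distal end, 42 probes form a rich stretch from 165162417 to 166015296 with a level of 0.19 on replicate 1 and 0.22 on replicate 2. This stretch of 0.85 Mb, like the region that follows it, was singled out after its values were seen. Depletion then resumed from 166027253 to the last probe at 171058175, over 5.03 Mb, where the 612 probes had -0.25 and -0.21. From the proximal end of the domain to the last probe, this stretch was the only place where the averaged level of both rats together rose above 0.

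The length of the domain depended on which rat was read. On replicate 1 alone the averaged level stayed below 0 from 140893068 to 165217583, over 24.3 Mb, and every probe of the domain had an averaged level below 0. On replicate 2 alone 97.7% of the domain probes did, and the longest uninterrupted part was 10.2 Mb, from 154450407 to 164666868. The next part, of 9.39 Mb, ran from 144905271 to 154298406, and one of 3.87 Mb from 141002215 to 144870603. The stretches that broke the domain in replicate 2 were short. The longest, from 164670337 to 165090151 near the distal end, held 35 probes over 420 kb, and the averaged level of replicate 2 rose to 0.15 at the last probe of the domain. A smoothing window of 250 kb in place of 500 kb also split the domain and left 11.7 Mb, from 153244480 to 164925930.

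The other long depleted regions were as low as the domain. The region from 2367210 to 15674347, of 13.3 Mb and with 1629 probes, had -0.31 on replicate 1 and -0.23 on replicate 2. The region from 102855055 to 110185045, of 7.33 Mb and with 720 probes, had -0.23 and -0.32. The levels of these regions and of the domain differ by less than the spread between the rats in the second region. Depletion of this depth was therefore found at both ends and in the middle of chromosome 3. The domain is the longest of these regions because it was chosen for its length, so its length is no finding.

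The 3 longest rich regions lie proximal to the domain. The longest, from 79306506 to 86369149 (7.06 Mb), had 0.54 on replicate 1 and 0.35 on replicate 2. The second, from 19312012 to 25870050 (6.56 Mb), had 0.32 and 0.08, and the one from 68458018 to 74795460 (6.34 Mb) had 0.45 and 0.31. All 3 were above 0 in both rats and higher in replicate 1. With normexp background correction they had 0.036, 0.0014 and 0.031 as the mean of both rats, and the second then had -0.0012 on replicate 2. With the trend on input brightness removed, the second had 0.24 and -0.00076. The array samples these regions unevenly, with 46.9 probes per Mb in the longest, 74.3 in the second and 173 in the last, against 101 in the domain. High ratios were thus seen in a probe-poor region and in a probe-dense one. In both regions the IP intensity was below the mean of the chromosome, and the input was further below its own mean.

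Fragments of 1 Mb were ranked where they held 50 probes or more and the rats had one sign. The highest were those from 72 to 73 Mb (0.62 on replicate 1 and 0.38 on replicate 2), from 70 to 71 Mb (0.57 and 0.42) and from 1 to 2 Mb (0.59 and 0.29). The first pair lies in the probe-dense rich region, and the other lies near the proximal end, next to a depleted region. The lowest were those from 54 to 55 Mb (-0.41 and -0.60), from 134 to 135 Mb (-0.20 and -0.63) and from 8 to 9 Mb (-0.35 and -0.45). None of these lies in the distal domain, but the last place was nearly a tie. The mean of both rats was -0.402 from 8 to 9 Mb and -0.401 in the lowest domain fragment, from 155 to 156 Mb. The lowest fragment of the chromosome, from 54 to 55 Mb with a mean of -0.50, lies outside the domain.

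Single probes could depart strongly from their surroundings. The highest probe well above background on both arrays, A_86_P01393968 at 4865840 to 4865890, had 3.97 on replicate 1 and 6.08 on replicate 2, although the averaged level around it was -0.21. The second highest, A_86_P01787673 at 145099513 to 145099572, lies inside the distal domain and had 3.28 and 2.67, and A_86_P01584606 at 73074123 to 73074182 had 1.99 and 3.70. The lowest probes were A_86_P01712108 at 118631722 to 118631781 (-3.67 and -4.03), A_86_P01732317 at 125220939 to 125220998 (-3.57 and -3.62) and A_86_P01436167 at 18951141 to 18951200 (-2.39 and -4.60). Both rats put each of these probes on the same side of 0, which is no finding, since the probes were chosen by the mean of both arrays. The averaged levels around the 3 lowest were only between -0.13 and -0.01.

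The rats resembled each other along chromosome 3 about as much as along the other chromosomes. Pearson's r between the arrays was 0.80 over the 172 fragments of 1 Mb (Spearman's rho 0.73), and on the other 20 chromosomes r ranged from 0.53 to 0.87. These are descriptions across neighbouring positions of the same pair of arrays, not across replicates. Over the 148 fragments outside the domain r was 0.81, and over the 24 fragments inside it r was -0.18. The choice of the domain by its mean level narrows the range of its fragments, whose SD was 0.077 against 0.26 outside, and can lower r, so the values of r are not compared. At the other sizes r inside the domain was above 0, with 0.25 for single probes, 0.25 at 50 kb, 0.24 at 200 kb, 0.17 at 500 kb and 0.25 at 2 Mb.

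**Figure D3:**
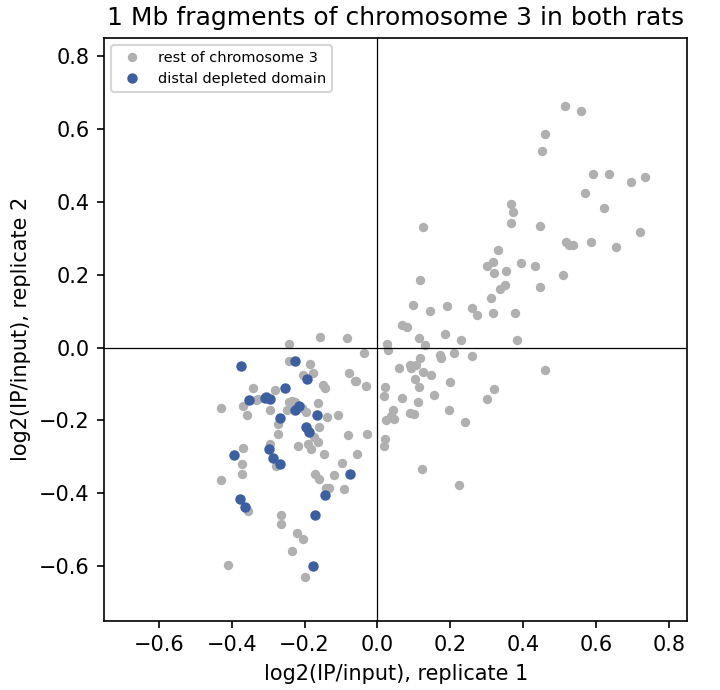
Mean log2(IP/input) of each 1 Mb fragment of chromosome 3 in replicate 1 (horizontal axis) against replicate 2 (vertical axis), with the 24 fragments of the distal depleted domain in blue and the other 148 in grey. The grey points follow a rising trend, and the blue points lie in the quadrant where both rats are below 0, over a narrower range.

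Opposite signs were found in 38 fragments of chromosome 3, or 22.1%, against 18.3% of all fragments of the genome. In 35 of them replicate 1 was above 0 and replicate 2 below, as in 417 of the 500 such fragments of the genome. The widest gap was found from 60 to 61 Mb, with 0.22 on replicate 1 and -0.38 on replicate 2 over 46 probes, a fragment chosen for its gap after the values were seen. Over the genome replicate 1 was higher by a mean of 0.10, in 1918 of 2731 fragments. Outside the domain the level was higher in replicate 1 by a mean of 0.11, in 107 of 148 fragments, while inside it replicate 1 was higher in 11 of 24 fragments and the mean difference was -0.011. The lack of this offset was not particular to the domain. Replicate 1 was also the lower one in the depleted regions from 2367210 and from 166027253, and the region of 5.10 Mb from 86385265 had -0.21 on both arrays.

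Brightness of the input channel was compared with the level, since it was measured beside the ratio. The domain was brighter in the input than the rest of the chromosome by 0.28 on replicate 1 and 0.31 on replicate 2, on the log2 scale of intensity. In the IP channel the domain differed from the rest by -0.00070 on replicate 1 and by 0.15 on replicate 2. The low level of the domain thus appeared as brighter input at an IP intensity that was equal or raised by less. The 13.3 Mb depleted region had the opposite make-up, with input at the chromosome's mean (0.0023 and 0.0079 above it) and IP at -0.28 and -0.13 from its mean. The probe-dense rich region differed from the chromosome's mean by -1.16 and -1.28 in the input and by -0.69 and -0.88 in the IP, and so was dimmer in both. Over the 172 fragments, Spearman's rho between the level and the input intensity measured with it was -0.52 in replicate 1 and -0.63 in replicate 2. With the input intensity of the other array, which does not enter the ratio, it was -0.52 and -0.62. The part of input brightness in these levels was not tested.

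**Figure D4:**
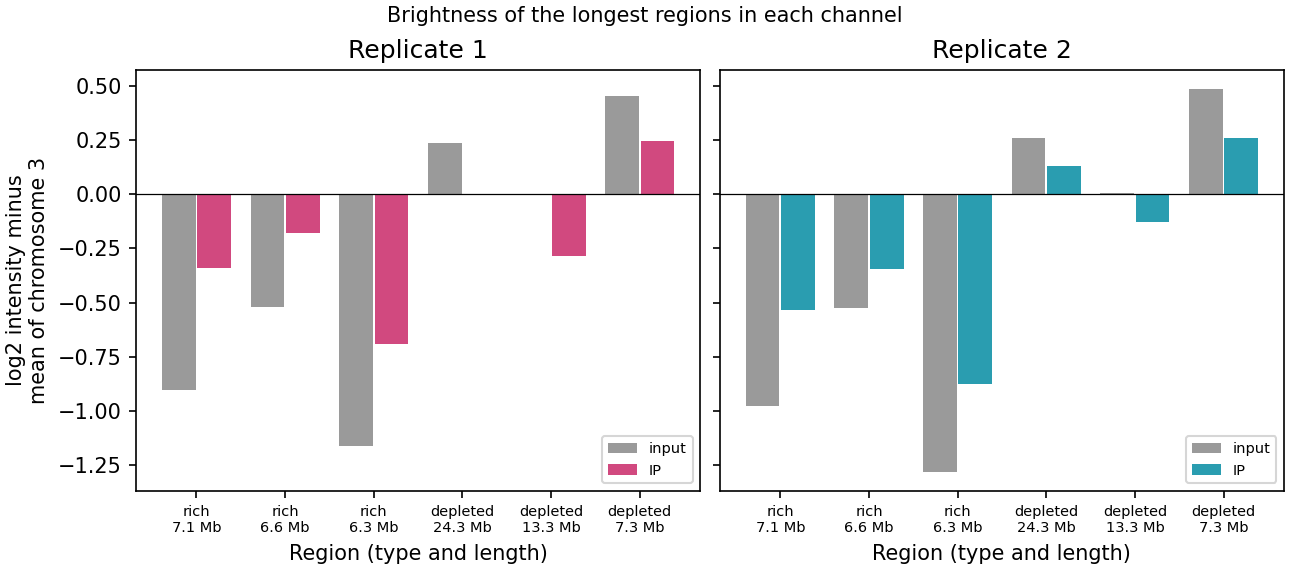
Mean log2 intensity of the input and IP channels in the 3 longest rich and 3 longest depleted regions, minus the mean of chromosome 3 in that channel (vertical axis), for replicate 1 and replicate 2. The rich regions are dimmer in both channels and more so in the input, and the 24.3 Mb domain is brighter in the input by 0.24 and 0.26.

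When the probes of chromosome 3 were divided into 4 classes of about equal size by their input intensity, the domain minus the rest was -0.31 on replicate 1 and -0.30 on replicate 2 in the dimmest class. In the next class it was -0.42 and -0.17, and in the one after that -0.23 and -0.087. In the brightest class, which held 712 of the domain probes, the difference was -0.078 on replicate 1 and 0.075 on replicate 2. The domain was thus lower in both rats in 3 of the 4 classes, and the rats disagreed in sign for the brightest probes. After removal of the trend of the ratio on input brightness, the mean level of the domain was -0.25 on replicate 1 and -0.21 on replicate 2, and the difference from the rest was -0.25 and -0.12.

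**Figure D5:**
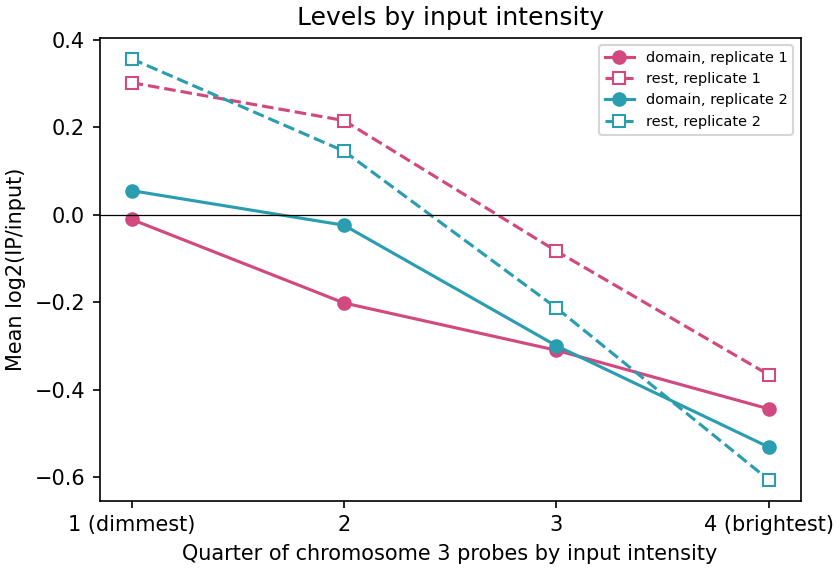
Mean log2(IP/input) of chromosome 3 probes (vertical axis) by class of input intensity, from the dimmest to the brightest (horizontal axis), for the domain (filled points) and the rest of the chromosome (open squares) on each array. Levels fall towards bright probes in all 4 curves, and the domain lies below the rest on the same array except for replicate 2 in the brightest class.

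The density of probes also varied with the level outside the domain. The 39 fragments of the rest with fewer than 60 probes had a mean level of 0.32 on replicate 1 and 0.12 on replicate 2, and 22 of them were above 0 in both rats and 2 below. The 53 fragments with 60 to 99 probes had -0.0075 and -0.125, and the 56 with 100 probes or more had -0.043 and -0.100. As the mean of both rats these classes were close, at -0.066 and -0.071, so the sparsest class stood apart. In the domain, the 5 fragments with fewer than 60 probes had -0.21 and -0.37, and the 11 with 100 or more had -0.26 and -0.21. Since the domain was chosen for its low level, the low level of its sparsely probed fragments is no finding. Spearman's rho between level and number of probes was -0.33 over the fragments of chromosome 3, and on the other chromosomes it ranged from -0.69 to -0.09.

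Long depleted regions of other chromosomes had similar levels. The longest one of the genome, on chromosome 10 from 33645586 to 60434892, had -0.24 on replicate 1 and -0.23 on replicate 2. The longest of chromosome 19, from 34626480 to 58354093, had -0.24 and -0.20. The contrast with the remainder of the own chromosome was -0.061 and -0.042 on chromosome 10, -0.19 and -0.11 on chromosome 19, and -0.28 and -0.16 on chromosome 3. Among the longest depleted regions of the other 20 chromosomes, 8 had a wider contrast than chromosome 3 in both rats, such as -0.43 and -0.22 on chromosome 14 and -0.39 and -0.27 on chromosome 11. The contrast thus does not mark out chromosome 3. These differences were not tested, since the regions were found on the same values.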

How the data were processed

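Members, regions and lists were chosen with earlier results of these data known. 8-oxoG IP DNA and input DNA of 2 kidneys were hybridised on 1 two-colour array each. The authors deposited the intensity of each spot, processed by Agilent Feature Extraction 10.5.1.1 (background subtraction, spatial detrending, lowess dye normalization), the signal as it was before the dye step, and the median spot and background brightness. They also deposited a table of log2 values, which equals log2 of processed red over green (largest difference 6.2e-15) and is not centred. The positions are on rn4, per the file headers.

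Spots with an outlier flag (21 of 15900 on chromosome 3) and control spots were left out, and no spot of chromosome 3 was saturated. Medians of 0.01 and 0.06 were subtracted from replicates 1 and 2. No loess or quantile step was added. Fragments of 1 Mb were tested against 0 with limma 3.58.1 in R 4.3.3 (intercept, eBayes, two-sided, Benjamini-Hochberg threshold of 0.05 over all fragments). The step was also run on simulated fragments with independent errors and no offset between the rats. These data have such an offset, so the simulation does not vouch for the calls. Averages, regions and plots were made in numpy 2.4.6, pandas 2.3.3, scipy 1.17.1 and matplotlib 3.10.9 (Python 3.11.15). Named items are the domain, the 3 longest rich and depleted regions, the 3 highest and lowest fragments (at least 50 probes) and probes, and the sections. Gene lists were planned, but the probes carry no gene names, so no gene was measured. With 2 arrays, precision is limited by their number.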

Additional observations from a re-analysis of the deposited data

How the results depend on the processing

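No paired analysis was possible because both rats belong to 1 group. Of 95 alternative values for the main results of chromosome 3, 76 stayed within a limit. This was the spread between the rats, 1.5 times for counts or 0.05 for r. Of 117 values for named regions and fragments 89 did, while none of the 117 changed sign. Both tallies include values without each replicate. For a mean level or difference, this returns the value of the other rat, which always lies within the spread. Such values could fail only by a change of sign, so their place in the tallies shows no stability. Normexp background correction (offset 50) brought the domain to -0.089 and its difference from the rest to -0.036, left 10 rich regions of 1 Mb or longer, 1 fragment above and 10 below 0, and gave r = 0.72 between the rats. With the median over probes the domain was at -0.16, 18 fragments were below 0 and r was 0.71. The domain was at -0.21 in the authors' table and at -0.22 with only probes well above background. A level beyond 0.25 on both arrays was reached by 16 fragments below 0. The mean of chromosome 3 turned to 0.00036 with the median over probes, and that of the rest of the chromosome to 0.021 before dye normalization, 0.014 in the authors' table and 0.032 with the median over probes. The cause was not tested.

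A window of 250 kb left 11.7 Mb of the domain. Without each replicate in turn, its length ranged from 10.2 Mb, without replicate 1, to 24.3 Mb, without replicate 2, and the mean of the rest of the chromosome from -0.071 to 0.023. Calls above 0 made up 48.4% of all calls on chromosome 3, and 9.09% with normexp and 64.7% with the median over probes. All 24 domain fragments stayed below 0 in both rats before dye normalization, with flagged spots kept and with the input trend removed, and 24 of 25 did on a moved grid, while 23 did with normexp, 22 in the authors' table, 22 with only probes well above background and 17 with the median over probes. Not run were the gene lists, for want of gene names, the moved grid for the difference between domain and rest, which is taken over probes, and calls without each replicate, since 1 array leaves limma no residual degrees of freedom. Signal over background limits the probes that were not well above background, which are all but 78.5%.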

Other observations

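The array also carries 105 probes on sequence assigned to chromosome 3 without a position. Their mean level was -0.02 on replicate 1 and 0.03 on replicate 2, with an SD over probes of 0.95 and 1.31. Both rats were above 0 for 33 of these probes and below 0 for 34.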
